A study of Mus musculus with 6 samples.

Results

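Interferon response genes are the set of 39 mouse genes described here, measured in tail keratinocytes from mice with an epidermal deletion of Gpr161 and from control mice. The genes were taken by symbol from a list that spans transcription factors, sensors, antiviral effectors and antigen processing genes. Of the 39 genes, 32 had a row in the deposited table of 19618 genes. The other 7 (Zbp1, Oas1a, Oas2, Oasl1, Rsad2, Rtp4 and Ifi44) were not analysed here. Counts were high enough for a test in 21 of the 32, among 15422 genes tested in all, and 11 were below the filter on low counts.

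Interferons are secreted proteins by which cells signal the presence of virus or of immune activation. Type I and type III interferons act through receptors linked to the kinases Jak1 and Tyk2, which activate Stat2, and Stat2 with Irf9 belongs to a factor that binds interferon-stimulated response elements (ISRE). Interferon gamma acts through gamma-activated sites (GAS), and keratinocytes, the main cells of the epidermis, respond to all of these interferons and keep a low level of many such genes without infection.

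Gpr161, a receptor found on the primary cilium, is known as a restraint on Hedgehog signalling, and the study asked how keratinocyte expression differs when it is deleted in the epidermis. The 3 samples labelled Gpr161eko carried K14cre, a Cre recombinase driven by the keratin 14 promoter of basal epidermal cells, and 2 floxed Gpr161 alleles. None of the 3 control samples is labelled with K14cre. Control_1 was homozygous and Control_2 and Control_3 were heterozygous for the floxed allele, so the deletion and the presence of Cre cannot be told apart. All samples were skin from mice 4 months old, and no treatment or infection is stated. The column names show only knockout or control, so which control library was the homozygous sample is not known, and libraries are named by their tags. DE679, DE685 and DE688 are the knockout libraries, and the controls are DE680, DE684 and DE689. The labels do not say whether each library came from a separate mouse, so the p-values measure the spread between these libraries, which may in part be technical.

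The libraries held 17157864 to 25344399 estimated counts, of which 2.02% to 2.55% were mitochondrial. Keratinocyte markers were abundant in every library, with a summed level of 43025 to 52163 CPM in the knockout and 41054 to 58866 CPM in the control, where CPM gives counts on a common library total after scaling with trimmed mean of M values (TMM) factors. In the knockout Gpr161 was 28.8 ± 4.23 CPM (SD, n = 3), beside 31.4 ± 1.10 CPM in controls. Its log2 fold change was -0.13 (SE 0.11, edgeR adjusted p 0.553), so its total level does not check the labels, and the genotypes below are those of the labels. Y-linked transcripts were present in DE685 of the knockout and DE684 of the control, with 3311 and 5291 counts, and the other libraries held at most 3. Throughout, a fold change is knockout over control on the log2 scale, and an adjusted p is from the edgeR quasi-likelihood test with Benjamini-Hochberg adjustment over all 15422 genes. For a single value, the exact two-sided permutation test over 3 and 3 libraries can reach no p below 0.1.

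Among the interferon response genes, Psmb8, a catalytic subunit of the immunoproteasome, rose in the knockout, and no member was called lower. By edgeR adjusted p under 0.05, 1 of 21 tested members was called higher, where 1.24% of all genes were, and 0 were called lower, where 0.357% of all genes were. At an unadjusted p under 0.05 there were 9 members higher and 0 lower, against 9.9% and 9.1% of all genes. DESeq2 called 5 members higher (Psmb8, Psmb9, Tap1, Parp14 and Ifi27) and 0 lower, against 3.66% and 1.99% of all genes. The 5 genes that DESeq2 called also had an edgeR adjusted p under 0.1. That level is loose, since Ifi27, the last of the 5, ranked 489 by edgeR p among the 15422 genes. Both tests read the same counts, so neither is separate support for the other.

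The point estimates lay mostly above 0 but were small. The fold change was above 0 in 19 of 21 tested members, against 49.3% of all genes tested. Its median over the members was 0.36, beside -0.0036 over all genes. The members ranged from -0.69 for Bst2 to 1.78 for Cmpk2, and these ends belong to genes with few counts. Every knockout library was above every control library for 10 members, and every knockout library was below for 1, Bst2. For each direction the share over all genes was 12.8% higher and 12.8% lower. The groups overlapped for the remaining 10 members. Without the 3 members that lie side by side on chromosome 17, the median was 0.33 and 0 members were called.

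**Figure D1:**
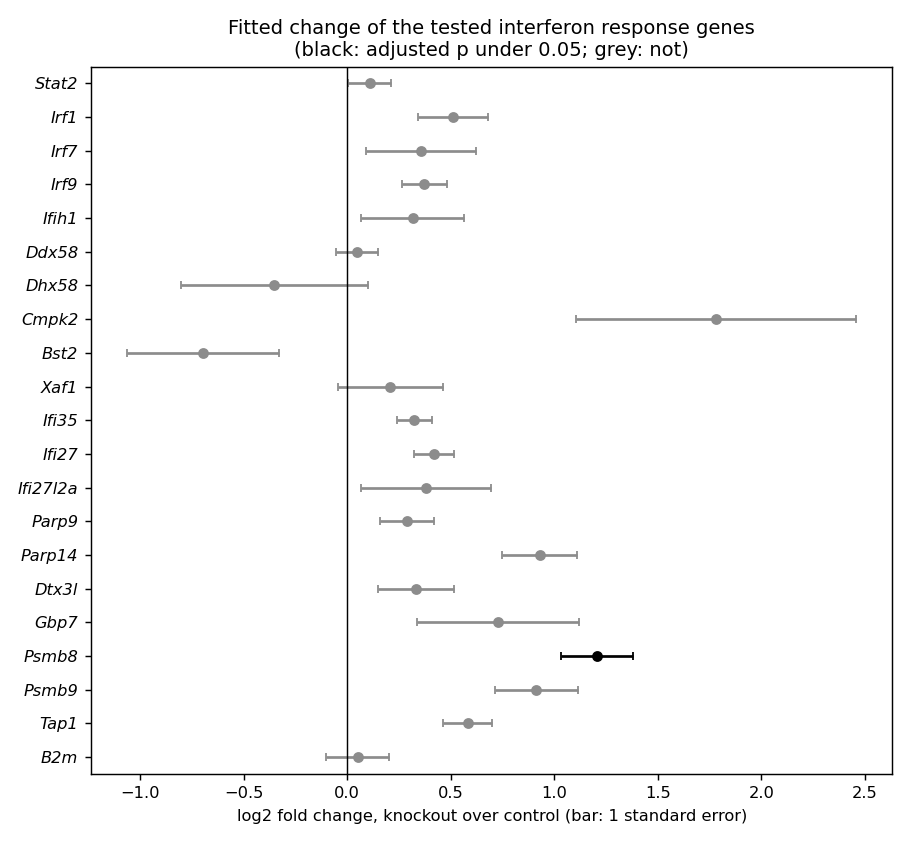
Log2 fold change, knockout over control, of each tested interferon response gene (points) with 1 standard error (bars), 3 libraries per group. Psmb8 at 1.21 is the only point drawn in black, for an edgeR adjusted p under 0.05, and 19 of the 21 points lie to the right of 0.

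The transcription factors of the response were all detected, and their fold changes had a median of 0.36. Irf1, a factor induced through GAS elements that drives antigen processing genes, stood at 7.76, 9.13 and 7.12 CPM in DE679, DE685 and DE688. In the controls DE680, DE684 and DE689 it stood at 4.79, 5.66 and 6.35 CPM. Every knockout library was above every control library. The fold change of Irf1 was 0.51 (SE 0.17), with an edgeR adjusted p of 0.170, which did not pass the threshold.

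The stretch upstream of the Irf1 start site is shown because it holds a GAS core, the element through which this factor is induced. It runs from 200 to 11 bases before the RefSeq start site on build GRCm38.p6, chr11:53769814-53770003, plus strand, and capitals mark the match to TTCNNNGAA.
Irf1: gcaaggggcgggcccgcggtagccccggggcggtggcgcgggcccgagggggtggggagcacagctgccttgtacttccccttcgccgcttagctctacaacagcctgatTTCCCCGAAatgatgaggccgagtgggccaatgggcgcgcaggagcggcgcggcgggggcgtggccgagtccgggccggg
The match begins 90 bases before the start site, and the stretch holds no match to the ISRE core GAAANNGAAA on either strand.

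Irf9, the DNA-binding subunit of the ISRE-binding factor, was 18.3, 18.1 and 15.8 CPM in the knockout libraries and 13.2, 14.7 and 12.4 CPM in the control libraries. These groups did not overlap either. Irf9 had a fold change of 0.37 (SE 0.11, edgeR adjusted p 0.138). Stat2, its partner, was 19.6, 24.0 and 21.2 CPM against 18.8, 19.6 and 21.6 CPM, and the groups overlapped. Stat2 had a fold change of 0.11 (SE 0.10, edgeR adjusted p 0.606). Irf7, the factor that amplifies type I interferon production, was the lowest of these factors per kilobase of exon, at 0.605 CPM. It read 2.71, 2.37 and 2.61 CPM in the knockout and 2.35, 2.28 and 1.39 CPM in the control. The groups of Irf7 did not overlap, but DE685 at 2.37 and DE680 at 2.35 nearly met, and the fold change of 0.36 (edgeR adjusted p 0.503) was 0.15 without DE689. Exons of Irf1, Irf7 and Irf9 overlap those of Gm17334, Phrf1 and Rnf31, so their counts are uncertain by any reads shared with these genes. Counts that were not whole numbers occurred in 6 libraries for Irf1, in 1 for Irf9 and in 0 for Irf7.

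The cytoplasmic sensors of foreign RNA showed no difference that passed the test. Ddx58, the gene of RIG-I, varied little across the knockout libraries, with 17.2, 17.6 and 17.1 CPM. The controls read 17.2, 18.1 and 14.9 CPM. The fold change of Ddx58 was 0.05 (SE 0.10, edgeR adjusted p 0.834), and it was -0.03 without DE689. Ifih1, the gene of MDA5, was 9.88, 7.80 and 12.5 CPM against 9.49, 5.48 and 9.32 CPM, with overlapping groups and a fold change of 0.32 (edgeR adjusted p 0.529), which was 0.10 without DE684 and 0.13 without DE688. In both groups Ifih1 was lowest in the library with Y-linked transcripts. Dhx58, the gene of the regulatory sensor LGP2, was at most 1.05 CPM in every library and had a fold change of -0.35 (edgeR adjusted p 0.714). That value rested on DE679, which held 7 counts of Dhx58, and it was 0.03 without this library.

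**Figure D2:**
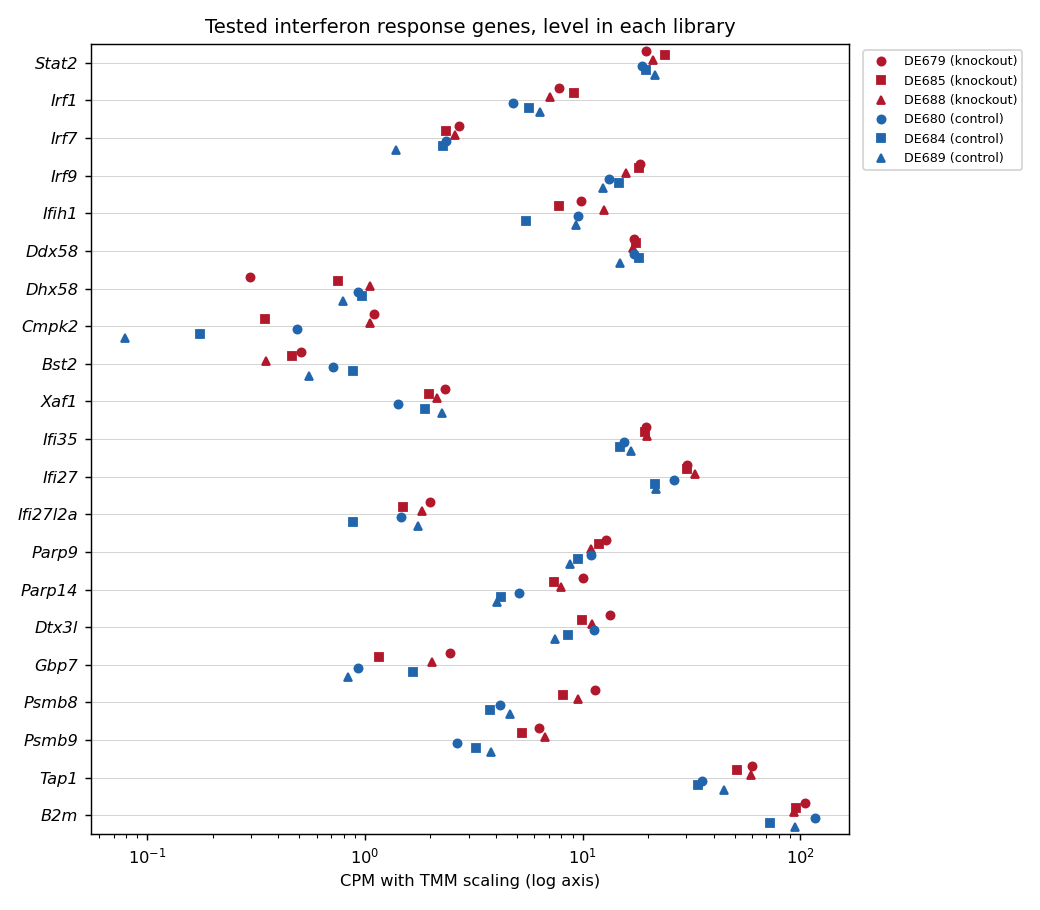
Level of each tested interferon response gene in each library, in CPM with TMM scaling on a log axis, with 3 knockout libraries in red and 3 control libraries in blue. The knockout and control points separate for Psmb8, Psmb9, Tap1, Parp14, Ifi27 and Ifi35 and interleave for B2m, Stat2 and Ddx58.

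The classical antiviral effectors were close to the detection limit of these libraries. All 11 members below the filter belong to these families. They comprise the RNA-binding Ifit proteins, the oligoadenylate synthetases that trigger RNA decay, the ISG15 conjugation pair, the dynamin-like GTPase Mx2, Trim30a and 2 guanylate-binding proteins. Several have close relatives in the genome, and reads shared with them may have been lost or split. Counts were whole numbers in every library for all of the 11 but Trim30a, which had a fractional count in 1 library. The totals of these 11 genes over the 6 libraries were 10 to 54 counts, and 10 was the smallest total of any listed gene. No library held more than 26 counts of any of the 11, and 4 of them were at 0 in some library. In a library, 3 counts were worth 0.117 to 0.173 CPM. These genes entered no test, and their values are descriptions.

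Ifit1 held 3, 2 and 3 counts in DE679, DE685 and DE688 and 3, 1 and 0 counts in DE680, DE684 and DE689. Ifit3 held 1, 0 and 4 counts in the same knockout order and 4, 0 and 1 in the controls. Ifit2 held 7, 2 and 9 counts against 3, 11 and 8 in the same order. In all 3 Ifit genes the groups overlapped, and a difference was not detectable at this depth. Oas3, an oligoadenylate synthetase, held 11, 9 and 10 counts in the knockout and 5, 6 and 4 counts in the control, which did not overlap. Its relative Oasl2 held 3, 0 and 11 counts against 1, 1 and 0, and most of the knockout counts came from DE688.

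Isg15, a ubiquitin-like modifier, held 6, 6 and 15 counts in the knockout and 6, 3 and 13 counts in the control. The highest library in each group, DE688 and DE689, held most of them, and the groups overlapped. Usp18, the protease that removes Isg15 from proteins and dampens the type I receptor, held 4, 2 and 5 counts against 12, 5 and 4. The upstream stretch of Isg15 is shown because the ISRE core was frequent in the promoter windows of these low genes, in 8 of 12. It runs from 200 to 11 bases before the RefSeq start site on GRCm38.p6, chr4:156200829-156201018, minus strand, and capitals mark the run covered by ISRE core matches.
Isg15: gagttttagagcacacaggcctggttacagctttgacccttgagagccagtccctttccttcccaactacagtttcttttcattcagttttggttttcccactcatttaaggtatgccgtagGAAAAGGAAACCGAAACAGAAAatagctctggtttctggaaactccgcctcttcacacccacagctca
The run holds 3 overlapping matches to GAAANNGAAA, which begin at -78, -72 and -66 from the start site. It holds no GAS core match.

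Gbp2, an interferon-inducible GTPase that acts on intracellular pathogens, held 6, 7 and 26 counts in the knockout and 1, 5 and 9 in the control. DE688 alone held 26 of the 39 knockout counts. Gbp3, encoded in the same cluster on chromosome 3, held 2, 3 and 1 counts against 5, 1 and 4. Trim30a held 11, 2 and 4 counts against 1, 0 and 2, with DE679 the highest, and Mx2 held 8, 9 and 12 counts against 6, 10 and 7. Mx2 carries the biotype of a polymorphic pseudogene in the deposited table. Summed over the 11 genes, the libraries held 62, 42 and 100 counts in the knockout and 47, 43 and 52 counts in the control. Scaled for depth this was 2.63, 2.43 and 3.89 CPM against 2.09, 1.89 and 2.06 CPM, and DE688 was the highest library.

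**Figure D3:**
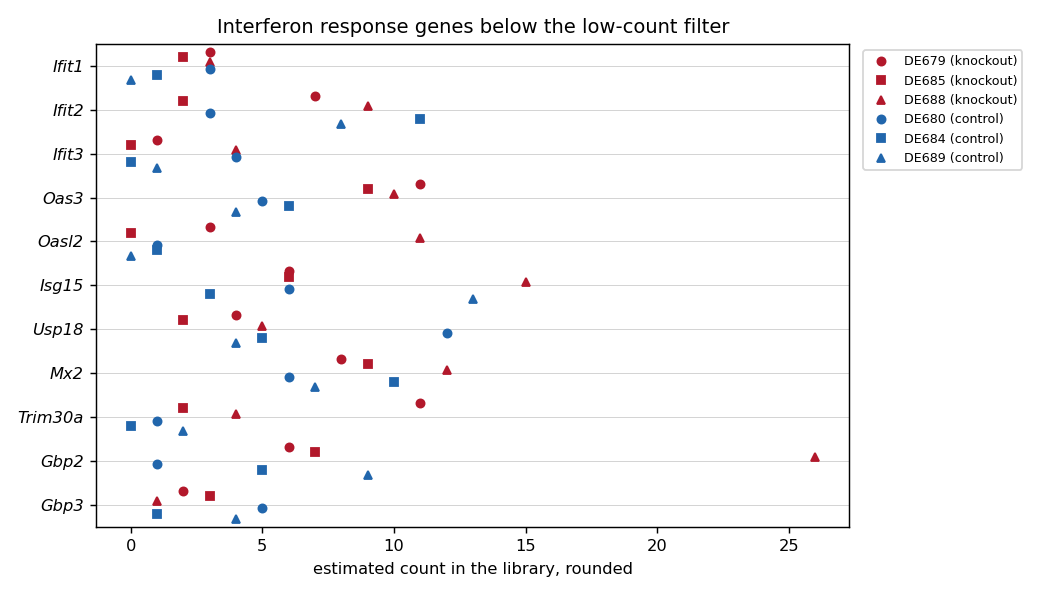
Rounded estimated counts of the 11 interferon response genes below the low-count filter, in each of 3 knockout (red) and 3 control (blue) libraries. The axis ends near 26 counts, reached by Gbp2 in DE688, and besides it only Isg15 in DE688 and DE689 exceeds 12.

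Among the antiviral effectors that could be tested, no gene passed the threshold. Cmpk2, a mitochondrial nucleotide kinase, had the largest fold change of the members, 1.78 (SE 0.68, edgeR adjusted p 0.218). It rested on few counts: 26, 6 and 27 in the knockout and 11, 4 and 2 in the control. The corresponding levels were 1.10, 0.347 and 1.05 CPM against 0.488, 0.175 and 0.0793 CPM. The low knockout library DE685 lay below the high control library DE680. Without single libraries the fold change of Cmpk2 ranged from 1.347 to 2.702.

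Bst2, the gene of tetherin, a protein that holds budding virus at the cell surface, was the member with the lowest fold change. It read 0.509, 0.462 and 0.350 CPM in the knockout and 0.710, 0.877 and 0.555 CPM in the control. All knockout libraries were below all control libraries. Bst2 had a fold change of -0.69 (SE 0.37, edgeR adjusted p 0.344), on 8 to 20 counts per library. Xaf1, a pro-apoptotic interferon target, was 1.96 to 2.33 CPM in the knockout and 1.42 to 2.26 CPM in the control, with a fold change of 0.21 (edgeR adjusted p 0.694) that ranged from 0.05 without DE680 to 0.38 without DE689.

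Of the genes named for interferon induction, Ifi27 and Ifi35 separated the groups without overlap. Ifi27, which encodes a small membrane protein, was 30.1, 30.2 and 32.7 CPM in the knockout and 26.2, 21.5 and 21.8 CPM in the control. Its fold change was 0.42 (SE 0.10), with an edgeR adjusted p of 0.0891 and a DESeq2 adjusted p of 0.0170. Ifi35 was nearly identical across the knockout libraries at 19.6, 19.4 and 19.8 CPM. The controls of Ifi35 lay lower at 15.4, 14.8 and 16.7 CPM, for a fold change of 0.32 (SE 0.09, edgeR adjusted p 0.112). Ifi27l2a, which lies 1927 bases from Ifi27 on chromosome 12, was 0.877 to 1.99 CPM over all libraries. Its groups overlapped, with a fold change of 0.38 (edgeR adjusted p 0.546) that ranged from 0.15 without DE684 to 0.60 without DE689.

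The Parp9, Dtx3l and Parp14 genes, which lie together on chromosome 16 and encode ADP-ribosylation and ubiquitin ligase factors of the interferon response, differed in how far they separated the groups. Parp14 was 10.1, 7.39 and 7.93 CPM in the knockout and 5.10, 4.21 and 4.05 CPM in the control. The groups did not overlap. The fold change of Parp14 was 0.93 (SE 0.18), with an edgeR adjusted p of 0.0551, just outside the threshold, and a DESeq2 adjusted p of 0.00135. Parp9 was 12.8, 11.9 and 10.97 CPM against 10.96, 9.56 and 8.73 CPM, so that DE688 and DE680 almost touched. Its fold change was 0.29 (SE 0.13, edgeR adjusted p 0.273). Dtx3l, the ligase that pairs with Parp9, overlapped between the groups with a fold change of 0.33 (edgeR adjusted p 0.364). Parp9 and Dtx3l overlap by 682 bases on opposite strands and had fractional counts in all 6 libraries. Whether counting used strand is not stated, so reads of the shared exon may have been split between them.

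Among the members, Gbp7 was the guanylate-binding protein gene with enough counts for a test. It stood at 2.46, 1.16 and 2.02 CPM in the knockout and 0.932, 1.67 and 0.833 CPM in the control, and DE685 lay below DE684. Gbp7 had a fold change of 0.73 (SE 0.39, edgeR adjusted p 0.351).

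Psmb8, the member past the threshold, belongs to the genes that prepare peptides for MHC class I. The immunoproteasome subunits Psmb8 and Psmb9 cut proteins to peptides, Tap1 with Tap2 carries the peptides into the endoplasmic reticulum, and B2m is the light chain of the class I molecule. Psmb8 (chr17:34197721-34201454, plus strand) was 11.4, 8.14 and 9.49 CPM in DE679, DE685 and DE688, on 269, 141 and 244 counts. In DE680, DE684 and DE689 it was 4.17, 3.77 and 4.64 CPM, on 94, 86 and 117 counts. Its counts were whole in all but 2 libraries. Exons of Psmb8 overlap those of Gm20496, a gene on the opposite strand without a row in the deposited table. The lowest knockout library was well above the highest control library.

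Psmb8 averaged 9.68 ± 1.64 CPM over the knockout libraries, beside 4.19 ± 0.435 CPM over controls (SD, n = 3). The fold change was 1.21 (SE 0.17), or 2.31-fold, with an edgeR adjusted p of 0.0213. The direction held without any single library, at fold changes of 1.08 to 1.31. The call did not: the edgeR adjusted p was 0.0354 without DE685 but 0.0844 without DE679, 0.0799 without DE688, 0.0741 without DE680, 0.0627 without DE684 and 0.0509 without DE689. In the 4 libraries without Y-linked transcripts, a comparison added after the data were seen, it was 1.24 with an edgeR adjusted p of 0.0638.

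Psmb9 (chr17:34181987-34187764, minus strand) was 6.32, 5.26 and 6.73 CPM in the knockout and 2.66, 3.25 and 3.81 CPM in the control. The groups did not overlap. The fold change of Psmb9 was 0.91 (SE 0.20), with an edgeR adjusted p of 0.0782 and a DESeq2 adjusted p of 0.00790. Tap1 (chr17:34187553-34197225, plus strand) was 60.1, 51.4 and 59.4 CPM in the knockout and 35.5, 33.9 and 44.7 CPM in the control, again without overlap. Tap1 had a fold change of 0.58 (SE 0.12, edgeR adjusted p 0.0622). Without DE689, its highest control, it was 0.72 with an edgeR adjusted p of 0.0314. Of the 6 fits that left out a single library, only this 1 passed. Over these fits the fold change of Tap1 ranged from 0.50 to 0.72, with an edgeR adjusted p of up to 0.211.

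The groups of B2m overlapped. B2m (chr2:122147686-122153083, plus strand) was 105, 95.8 and 93.5 CPM in the knockout and 117, 73.0 and 94.4 CPM in the control, so the highest and the lowest library were both controls. The fold change of B2m was 0.05 (SE 0.15, edgeR adjusted p 0.886), and it was -0.11 without DE684. The B2m upstream stretch is shown because this gene holds an ISRE core and was the most abundant member per length. It runs from 200 to 11 bases before the RefSeq start site on GRCm38.p6, chr2:122147487-122147676, plus strand, with the ISRE core match in capitals.
B2m: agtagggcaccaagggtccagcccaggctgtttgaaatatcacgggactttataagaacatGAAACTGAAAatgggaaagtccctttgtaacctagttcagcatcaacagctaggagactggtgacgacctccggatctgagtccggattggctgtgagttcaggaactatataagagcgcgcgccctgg
The match begins 139 bases before the start site. Whether the change of B2m differs from that of Psmb8 was not tested.

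Psmb9, Tap1 and Psmb8 are immediate neighbours. Psmb9 and Tap1 lie head to head, with RefSeq start sites 226 bases apart and annotated genes that overlap by 212 bases, and Psmb8 begins 495 bases past Tap1. Psmb9 and Tap1 had fractional counts in all 6 libraries, so reads in their shared part may have been split between them. Within 100 kb of Psmb8 the table listed 12 genes, of which 11 were tested, all 11 had a fold change above 0, and 6 had every knockout library above every control library. Over all genes these shares were 49.3% and 12.8%, and the window was centred on the called gene, so nothing is read from these counts. Tap2, on the other side of Psmb8, read 72.6, 54.5 and 60.6 CPM in the knockout and 29.0, 24.7 and 42.2 CPM in the control. Its fold change was 0.97 (SE 0.20, edgeR adjusted p 0.0622). Exons of Tap2 overlap those of Gm15821 on the opposite strand, and both genes had fractional counts in all 6 libraries. Reads may thus have been split between Tap2 and Gm15821. Brd2, in the same window, had a fold change of 0.0035 (edgeR adjusted p 0.980). Psmb8 was the only gene of the window past the edgeR threshold, and the neighbours share a stretch of chromosome, so they are not independent of each other.

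Per kilobase of exon, the members differed widely in level. Mean CPM per exonic kilobase over the 6 libraries ran from 0.130 for Cmpk2 to 112 for B2m among the tested members. Ifi27 followed B2m at 18.5, then Ifi35 at 10.2 and Tap1 at 8.67 CPM per kilobase. Psmb8 stood at 2.05 and Psmb9 at 1.28 CPM per kilobase, below Tap1 in these libraries. The length used was the union of exons over all annotated transcripts of a gene, which can be longer than any 1 transcript. It was 3.381 kb for Psmb8, 3.66 kb for Psmb9, 3.776 kb for Irf7 and 0.86 kb for B2m. Levels per kilobase may thus be too low for some members, and their order is approximate.

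The members' medians were above 0 in each knockout library and below 0 in each control library. Each value was centred as log2(CPM + 0.5) minus its mean over the 6 libraries, and the median over the 21 tested members was 0.23 in DE679, 0.06 in DE685 and 0.18 in DE688. It was lower in the controls DE680 (-0.05), DE684 (-0.23) and DE689 (-0.19). The highest library was a knockout library for 18 of 21 members. Over all genes it was DE679 for 16.9%, DE685 for 14.1% and DE688 for 15.9%. The lowest library was a control library for 19 members, and the share over all genes was not taken. DE679 alone was the highest for 11 members, where it was the highest for 16.9% of all genes. The members share these libraries and are not replicates of each other.

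**Figure D4:**
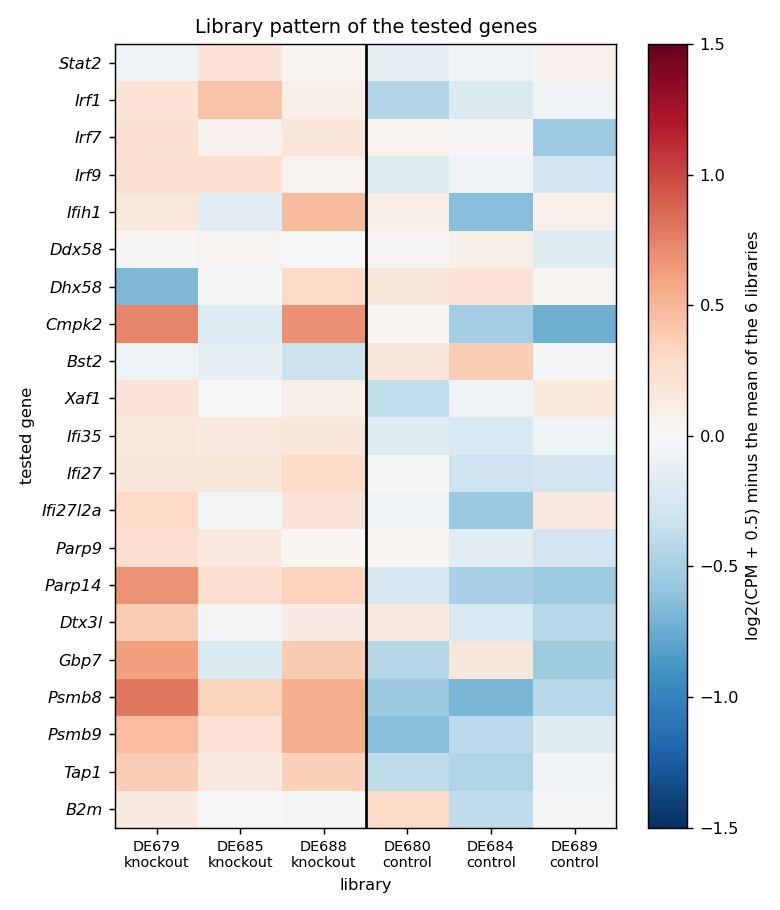
Heat map of each tested interferon response gene (rows) in each library (columns, knockout left of the black line), coloured by log2(CPM + 0.5) minus the gene's mean over the 6 libraries. Red predominates in the knockout columns, palest in DE685 with a median of 0.06, and blue predominates in DE684 and DE689, while Bst2 runs the other way.

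Upstream sequence was compared by motif for the 29 members with a promoter in the RefSeq table, which gives 34 windows of 300 bases, 250 before and 50 after a start site. The ISRE core GAAANNGAAA, searched on both strands, was in 3.44% of all 32851 windows and in 47.1% of member windows (16 of 34). The GAS core TTCNNNGAA, which reads the same on both strands, was in 8.3% of all windows and in 20.6% of member windows (7 of 34). Each motif was counted on its own, and a match of one may overlap a match of the other. Members below the filter carried the ISRE core in 8 of 12 windows, and tested members in 6 of 18. The GAS core was in 5 of 18 windows of tested members, those of Irf1, Psmb8, Bst2, Gbp7 and Ifi35, and in 1 of 12 below the filter. In the Psmb8 window it begins at chr17:34198098, 97 bases before the RefSeq start site. The deposited table starts Psmb8 at 34197721, so this match lies inside the gene as annotated there. A match says only that these letters are present in the window.

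The wider interferon pathway was read from 6 further lists with 143 genes, of which 109 were in the table and 92 were tested. The edgeR test called 0 of the 92. At an unadjusted p under 0.05 there were 17 higher and 1 lower of the 92, where the shares over all genes were 9.9% and 9.1%. DESeq2 called 8 higher and 1 lower, where it called 3.66% and 1.99% of all genes. The median fold change over the 92 was 0.15, and 22 had every knockout library above every control library while 1 had every knockout library below, each against 12.8% of all genes. The list of 17 interferon ligands had no row in the table and was not analysed here.

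The receptors and their kinases, which start the signal, were all tested, with a median of 0.13 over 10 genes. At an unadjusted p under 0.05, where 9.9% of all genes were higher, 2 were higher. Tyk2, a kinase of the type I receptor, was 42.4, 37.8 and 40.4 CPM in the knockout and 33.7, 33.2 and 33.8 CPM in the control, a fold change of 0.26 (edgeR adjusted p 0.117). Ifnar1, a chain of that receptor, had a fold change of 0.17 (edgeR adjusted p 0.256).

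The adaptors and kinases of nucleic acid sensing had a median of 0.16 over 13 tested genes. At an unadjusted p under 0.05, where 9.9% of all genes were higher, 1 was higher. That gene was Ikbke, a kinase that activates Irf3 and Irf7, at 31.3, 32.5 and 29.7 CPM against 20.8, 22.8 and 15.03 CPM. Its groups were well apart, with a fold change of 0.67 (SE 0.15, edgeR adjusted p 0.0770). Irf3 itself had a fold change of 0.16 (edgeR adjusted p 0.316).

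The negative regulators of interferon signalling had a median of 0.08 over 16 tested genes. At an unadjusted p under 0.05, where 9.9% of all genes were higher, 4 were higher. Socs3, a feedback inhibitor of cytokine receptors, was 13.3, 14.8 and 13.8 CPM in the knockout and 8.96, 9.65 and 7.14 CPM in the control. Its fold change was 0.70 (SE 0.14, edgeR adjusted p 0.0563). Ptpn6, a phosphatase that limits Jak signalling, had a fold change of 0.29 (edgeR adjusted p 0.0861).

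Of 65 further interferon-stimulated genes, 51 were in the table and 38 were tested, with a median of 0.19. At an unadjusted p under 0.05, where 9.9% of all genes were higher, 5 of the 38 were higher. Irgm2, an interferon gamma-induced GTPase, was 4.24, 2.83 and 4.20 CPM against 1.82, 1.84 and 2.06 CPM, a fold change of 0.98 (SE 0.24, edgeR adjusted p 0.0949). Pml, the scaffold of nuclear bodies, had a fold change of 0.37 (edgeR adjusted p 0.104). The further genes of class I presentation had a median of 0.15 over 15 tested. At an unadjusted p under 0.05, 5 were higher and 1 was lower, against 9.9% and 9.1% of all genes. Tap2, described above, and Pdia3 had the lowest p of that list. Pdia3, a thiol oxidoreductase of the peptide-loading complex, ran lower in the knockout at 314, 327 and 301 CPM against 366, 388 and 354 CPM, a fold change of -0.24 (edgeR adjusted p 0.112).

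Markers of other cells were read beside these genes, since Psmb8, Tap1 and Gbp genes are also expressed by leukocytes, and in bulk RNA fewer cells of a type and less RNA per cell cannot be told apart. The pan-leukocyte list (5 of 5 markers with a higher mean in the knockout) summed to 31.0, 11.96 and 16.8 CPM in the knockout and 17.3, 6.49 and 10.1 CPM in the control. The Langerhans cell list (7 of 7) summed to 168, 69.9 and 163 CPM against 144, 35.9 and 101 CPM. Both lists overlapped between the groups, and within each group both were lowest in the library with Y-linked transcripts.

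The T cell list (7 of 8) did not overlap, at 60.3, 48.2 and 42.7 CPM against 30.4, 21.6 and 34.3 CPM, and most of it was Thy1. Thy1 read 49.3, 43.7 and 36.6 CPM against 24.3, 18.8 and 28.6 CPM, with a fold change of 0.85 (edgeR adjusted p 0.0560). Without Thy1 the list summed to 11.1, 4.56 and 6.03 CPM against 6.17, 2.81 and 5.67 CPM, and the groups overlapped. The macrophage list summed to 7.86 to 18.01 CPM in the knockout and 5.79 to 11.9 CPM in the control, and its markers Adgre1, Lyz2 and Mrc1 were at 0 in some library.

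Fibroblast markers summed to 129 to 142 CPM in the knockout and 37.4 to 79.1 CPM in the control, and without Dcn, the one called gene of that list, to 14.97 to 18.98 CPM and 12.5 to 38.6 CPM. The endothelial list summed to 2.08 to 3.62 CPM in the knockout against 3.65 to 7.11 CPM, without overlap. Of the 5 neutrophil markers only Cxcr2 was in the table, at 1.31 to 1.56 CPM against 2.31 to 3.53 CPM. The dissociation stress list overlapped, at 1116 to 1338 CPM against 1002 to 1366 CPM. Melanocyte markers overlapped at 63.0 to 100 CPM against 42.1 to 68.0 CPM, and skeletal muscle markers at 2.19 to 2.88 CPM against 1.95 to 3.11 CPM. The plasmacytoid dendritic cell list, which includes Bst2 and was nearly all Ly6d, summed to 2087 to 2176 CPM against 2254 to 2563 CPM. That sum follows Ly6d and is not read as a level of these cells. Tcf4 and Ccr9 of the list overlapped between the groups, and a sum without Ly6d was not taken. The part of any of these cells in the levels of the interferon response genes was not tested.

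**Figure D5:**
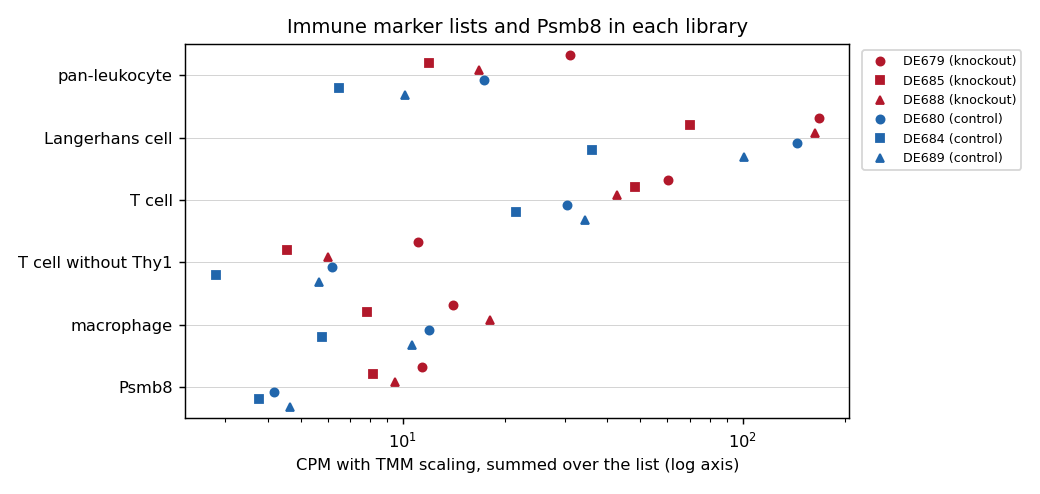
Summed CPM with TMM scaling of leukocyte marker lists and the level of Psmb8, in each of 3 knockout (red) and 3 control (blue) libraries, on a log axis. The groups overlap for the pan-leukocyte, Langerhans cell and macrophage lists and for the T cell list without Thy1, and they separate for Psmb8 and for the full T cell list.

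Sex is not given in the labels, and the libraries with Y-linked transcripts were split evenly between the groups. With the presence of Y-linked transcripts as a covariate, edgeR called 3 members higher, Psmb8, Tap1 and Parp14, where 1.94% of all genes were called higher. It called 0 members lower, where 110 of all 15422 genes were called lower. In that fit Tap1 had an adjusted p of 0.0228 and Parp14 of 0.0422, and neither fold change moved from its value above by more than 0.01.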

How the data were processed

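Polyadenylated RNA of trypsin- and dispase-separated tail epidermis was sequenced from stranded libraries, per the labels' protocols. The authors deposited estimated counts per gene (53.0% to 57.7% of values exactly whole as written, with no tolerance) and a normalized signal per gene. That signal lay within 0.350% of CPM with TMM scaling up to a common factor. The submitters' processing notes name bcl2fastq 2.20, cutadapt 1.18, STAR 2.7.0f, Partek and build mm10; the settings, the annotation and the use of strand in counting are not given in the sources used here. Table coordinates had the same start and end as GENCODE M21 for 98.76% of matched symbols. Windows and start sites are RefSeq's, build GRCm38.p6. Exon lengths for CPM per kilobase come from GENCODE, as the union of exons over all transcripts of a gene.

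The test was laid out for raw counts, and the estimated counts were rounded and tested the same way in R 4.3.3. The steps were edgeR 4.0.16 filterByExpr defaults, TMM factors (0.975 to 1.03), and glmQLFit and glmQLFTest on genotype alone, over all 6 libraries. The F statistic of each fold change gave its standard error. An adjusted p under 0.05 was a call. Alternatives were other scaling factors, other filters, DESeq2 1.42.0, limma 3.58.1 with voom or on log2(normalized signal + 1), a Y-linked covariate, each library left out, and, chosen after seeing the data, the 4 libraries without Y-linked transcripts. Counts of same-group libraries gave a chi-square of 12.1 to 39.2 per degree of freedom, above sampling noise, so none was taken for a copy. No molecular identifiers are mentioned, so totals and counts are of reads and not of molecules.

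Levels in every library were printed for members with a call, the 12 tested members with the lowest unadjusted p and the 8 with the highest mean CPM, which came to 15 genes. From each further list the 2 genes with the lowest p were named, and the other genes named were chosen after their values were seen. The members and lists were chosen with earlier results of these data known.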

Additional observations from a re-analysis of the deposited data

How the results depend on the processing

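The median fold change of the members stayed between 0.29 and 0.43 in all 15 alternatives. DESeq2 called 872 genes, 5 members and 9 genes of the further lists, and the Y-linked covariate 409, 3 and 3, where the reported fit called 247, 1 and 0. Leaving out single libraries gave 69 to 121 genes, 0 to 1 members and 0 to 1 genes of the further lists. The 4 libraries without Y-linked transcripts gave 87 genes and 0 members. These fits hold fewer libraries. Psmb8 kept its direction in all 15 alternatives (1.03 to 1.31) and passed in 9, with adjusted p from 2.66e-06 to 0.0844. Dhx58 ranged from -0.81 to 0.025 without single libraries and reversed without DE679 (0.025). B2m ranged from -0.11 to 0.23 and reversed without DE684 (-0.11) and in the 4 libraries (-0.089). Ddx58 ranged from -0.029 to 0.11 and reversed without DE689 (-0.029). The cause was not tested. No paired analysis was possible because the columns carry no replicate numbers. Members with under 1 CPM (3 of those tested, and all 11 below the filter) are limited by depth.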
